A study of Mus musculus with 6 samples.

Results

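Sp8 and Sp9, a pair of zinc-finger transcription factor genes, and Abcb5 and Itgb8, the next genes along the chromosome from Sp8 in the count files, were followed in newborn mouse epidermal cells with and without Eed. They were taken by gene symbol and make up 4 of the 24453 genes counted. Their counts in these same libraries, which stood higher in Eed conditional knockout (cKO) than in control, are what singled them out, so their differences between the groups are given as descriptions with no test. The cells came from the back skin of newborn mice at postnatal day 0 and were sorted as interfollicular epidermis by EpCAM, Sca1 and high α6-integrin, and their RNA was amplified before sequencing. There were 3 libraries with the genotype label Control and 3 with the genotype label Eed-/-, called Eed cKO in their titles. The Cre driver, the deleted exons, the strain, the alleles carried by the controls and the number of animals behind each library were not stated in the sources used here. The labels do not state that libraries came from separate animals, so each p-value below measures the spread between libraries, which may be technical. The comparison asks which transcripts differ in epidermal progenitors that lack Eed.

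Eed is a core subunit of Polycomb repressive complex 2, which methylates histone H3 at lysine 27 and keeps many developmental regulators silent in cell types that do not use them. Sp8 and Sp9 belong to the SP branch of the SP/KLF family, which binds GC-rich promoter DNA. They are best known from the apical ectodermal ridge, the thickened limb bud ectoderm whose Fgf8 they help to maintain, and from precursors of forebrain interneurons. Abcb5 encodes a membrane transporter of the P-glycoprotein family, known as a marker of limbal stem cells of the eye and of a subset of melanoma cells. Itgb8 encodes the integrin β8 subunit, which pairs with αv and activates latent TGF-β.

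Total counts ran from 20998149 to 29998531 per library, and values are given as counts-per-million (CPM) after scaling between libraries. Eed itself was at 41.1 to 53.1 CPM in control and 29.2 to 37.0 CPM in Eed cKO. Its difference did not pass the edgeR quasi-likelihood test (log2 fold change -0.48 ± 0.19 SE, adjusted p = 0.252), and a count over the whole gene checks the labels only in part. The 10 basal keratinocyte markers examined, Krt5, Krt14, Trp63 and Itga6 among them, summed to between 36200 and 42800 CPM in control and between 30800 and 40500 CPM in Eed cKO, so the libraries hold the labelled cell type. Krt5 made up most of that sum, at 22623 and 22537 CPM on average. Epcam, which was also used in the sort, rose from 82.1 ± 20.4 to 140 ± 17.4 CPM (adjusted p = 0.0433), and Trp63, Krt15 and Col17a1 were lower in every Eed cKO library than in any control library but did not pass (log2 fold change -0.37 for each, adjusted p = 0.266, 0.394 and 0.278).

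The stretch just upstream of a transcription start is where a promoter lies, and the sequences of Sp8, Sp9 and Abcb5 are shown because they differ in their content of the dinucleotide CG. RefSeq lists 3 starts for Sp8 and 1 each for Sp9, Abcb5 and Itgb8 on GRCm38.p6. The 250 bases before the second Sp8 start (chr12:118846983-118847232, plus strand) and before the Sp9 start (chr2:73271676-73271925, plus strand) read as follows, with the longest run of bases shared by the pair in capitals.
Sp8: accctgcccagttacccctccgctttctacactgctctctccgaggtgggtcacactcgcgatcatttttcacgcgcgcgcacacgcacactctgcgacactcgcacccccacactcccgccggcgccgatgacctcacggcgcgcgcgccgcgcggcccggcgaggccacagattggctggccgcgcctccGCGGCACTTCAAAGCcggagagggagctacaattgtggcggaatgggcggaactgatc
Sp9: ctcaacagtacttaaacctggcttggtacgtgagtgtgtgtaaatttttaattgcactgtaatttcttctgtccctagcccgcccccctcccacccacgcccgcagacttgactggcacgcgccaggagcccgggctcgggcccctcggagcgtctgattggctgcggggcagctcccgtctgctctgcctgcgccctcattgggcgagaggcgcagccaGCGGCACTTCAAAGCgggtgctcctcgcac
The run is 15 bases long and lies 58 to 44 bases before the Sp8 start and 30 to 16 bases before the Sp9 start, in the same orientation. Searched on both strands, it occurred in 2 of 32851 RefSeq promoter windows of 300 bases (250 before and 50 after a start), those of Sp8 and Sp9. The run was picked after the sequences were seen, and no function is assigned to it here. The first and the third Sp8 start shared no run longer than 9 bases with the Sp9 window on either strand.

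The 250 bases before the Abcb5 start (chr12:118966422-118966671, minus strand) read as follows, with each CG in capitals.
Abcb5: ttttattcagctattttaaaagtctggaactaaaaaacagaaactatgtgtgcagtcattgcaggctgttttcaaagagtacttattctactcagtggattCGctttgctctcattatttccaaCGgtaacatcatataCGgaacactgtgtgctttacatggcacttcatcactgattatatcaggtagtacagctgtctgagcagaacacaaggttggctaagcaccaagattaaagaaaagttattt
Only 3 CG dinucleotides stood in those 250 bases, against 32 before the second Sp8 start and 18 before the Sp9 start. Over the whole 300-base windows the counts were 32 for the second Sp8 start, 25 for Sp9, 13 for Itgb8 and 4 for Abcb5, where the median of all windows was 7 and the quartiles were 3 and 20. Fewer CG dinucleotides were found in 90.5% of all windows than in that of the second Sp8 start, in 81.6% than in that of Sp9, in 62.1% than in that of Itgb8 and in 31.4% than in that of Abcb5. The first Sp8 start, 2 CG, and the third, 10 CG, differed from the second, so the figure for Sp8 depends on the start. The GC-box core GGGCGG, read on both strands, matched once in the windows of the second Sp8 start and of Sp9, in neither other Sp8 window and not in those of Abcb5 or Itgb8, and 35.7% of all windows held it. These are letters in a window, and no binding or methylation was measured here.

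**Figure D1:**
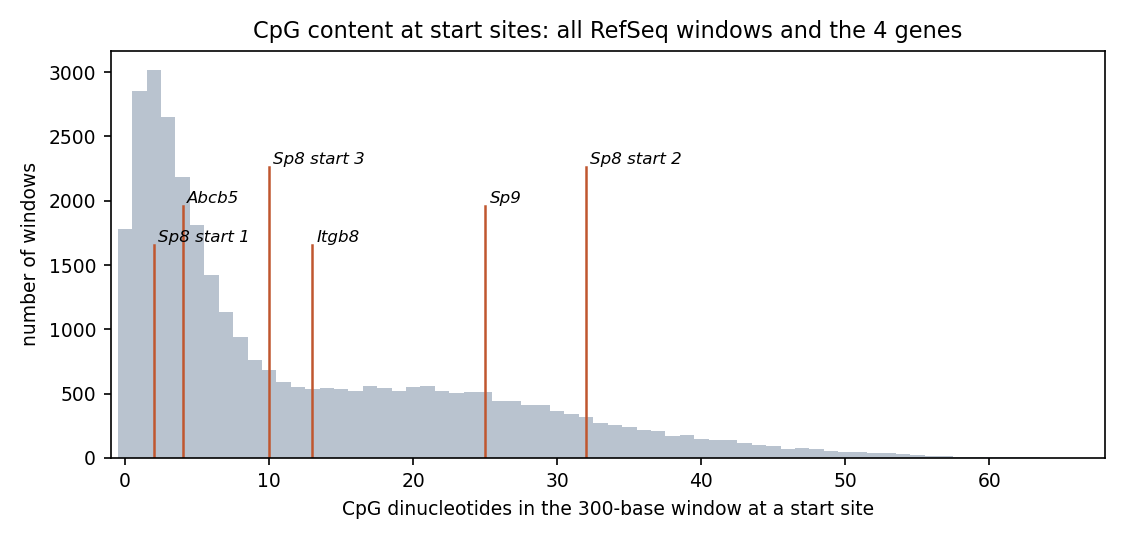
Number of RefSeq promoter windows of 300 bases (vertical axis) by their count of CG dinucleotides (horizontal axis), with vertical lines at the start sites of Sp8, Sp9, Abcb5 and Itgb8. The second Sp8 start (32) and Sp9 (25) lie to the right of the upper quartile of 20, and Abcb5 (4) lies below the median of 7.

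Sp8 (ENSMUSG00000048562.7, GRCm38 chromosome 12, 118846329 to 118852576, plus strand) had no count in any of the 3 control libraries and 542, 495 and 561 counts in Eed cKO 1, 2 and 3. A count of 0 allows up to 3 counts, which is 0.112, 0.0959 and 0.117 CPM in control 1, 2 and 3. In Eed cKO the levels were 19.7, 19.9 and 27.2 CPM, with a mean of 22.3 ± 4.24 CPM (SD, n = 3). All 3 Eed cKO libraries were high, the highest being 1.38 times the lowest, and the groups did not overlap. Against 3 counts over the pooled control libraries, 0.0359 CPM, Sp8 was at least 610-fold higher in Eed cKO. In bulk RNA, fewer cells carrying a transcript and less of it per cell cannot be told apart, so these levels do not tell how many cells held Sp8.

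Sp9 (ENSMUSG00000068859.5, chromosome 2, 73271925 to 73284706, plus strand) likewise had no count in control 1, 2 or 3. In Eed cKO 1, 2 and 3 it had 497, 182 and 177 counts, or 18.1, 7.30 and 8.57 CPM, with a mean of 11.3 ± 5.91 CPM (SD, n = 3). The groups did not overlap, and Eed cKO 1 stood above the other two, 2.48 times the lowest. Sp9 was at least 327-fold higher in Eed cKO on the same floor, and at least 219-fold higher without Eed cKO 1, when its mean was 7.93 CPM. Its coefficient of variation over the Eed cKO libraries was 52.1%, against 19.1% for Sp8. The summed leukocyte markers were also highest in Eed cKO 1 among the knockouts, 398 CPM against 76.4 and 117 CPM in Eed cKO 2 and 3, and control 1 was higher still at 534 CPM with no Sp9 count. Their part in the spread of Sp9 was not tested.

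The balance of the pair differed between knockout libraries. Sp9 counts per Sp8 count were 0.917, 0.368 and 0.316 in Eed cKO 1, 2 and 3, and 0.829, 0.332 and 0.285 once each gene's counts were divided by its exonic length. Sp8 was thus the more abundant of the pair per length in every Eed cKO library, narrowly so in the first. The pair can be told apart by read sequence, since the main Sp8 and Sp9 transcripts, 4478 and 4514 bases long, shared no run longer than 44 bases while the reads are longer. None of 4528 distinct 100-base stretches of Sp8 transcripts occurred in another gene. For Sp9, 173 of 4945 (3.50%) did, in Cir1 and Gm2810, and 270 of its exonic bases overlap those of Cir1 on the opposite strand.

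Abcb5 (ENSMUSG00000072791.11, chromosome 12, 118867824 to 118966421, minus strand) was the lowest of the 4. It had no count in control 1, 2 or 3 and 28, 23 and 19 counts in Eed cKO 1, 2 and 3. These correspond to 1.02, 0.923 and 0.920 CPM, a mean of 0.954 ± 0.0570 CPM (SD, n = 3), at least 26.7-fold above the floor of the pooled controls. The 3 knockout libraries lay close together, the highest being 1.11 times the lowest, on few counts. The groups did not overlap, and Abcb5 counts came to 5.17%, 4.65% and 3.39% of those of Sp8 in Eed cKO 1, 2 and 3. Melanocyte markers, of interest because Abcb5 is known from pigment cell tumours, summed to 9.65 to 27.3 CPM in control and 12.7 to 22.6 CPM in Eed cKO. Those ranges overlapped, and none of the 6 tested of 10 was called by edgeR (2 at an unadjusted p under 0.05, 0 by DESeq2). Of those 6, 5 had a positive log2 fold change, with a median of 0.82, where that of all tested genes was -0.01.

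Itgb8 (ENSMUSG00000025321.14, chromosome 12, 119158022 to 119238802, minus strand) was the only one of the 4 with counts in control. It had 58, 23 and 48 counts in control 1, 2 and 3, or 2.17, 0.735 and 1.87 CPM. In Eed cKO 1, 2 and 3 it had 423, 325 and 416 counts, or 15.4, 13.04 and 20.1 CPM. Control 2 was the lowest control library, and the lowest Eed cKO library was above the highest control library. Mean levels of Itgb8 were 1.59 ± 0.758 CPM in control and 16.2 ± 3.61 CPM in Eed cKO (SD, n = 3 each), a ratio of pooled counts of 10.3 with a 95% counting interval of 8.61 to 12.5. The fitted log2 fold change was 3.35 ± 0.42 (SE).

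**Figure D2:**
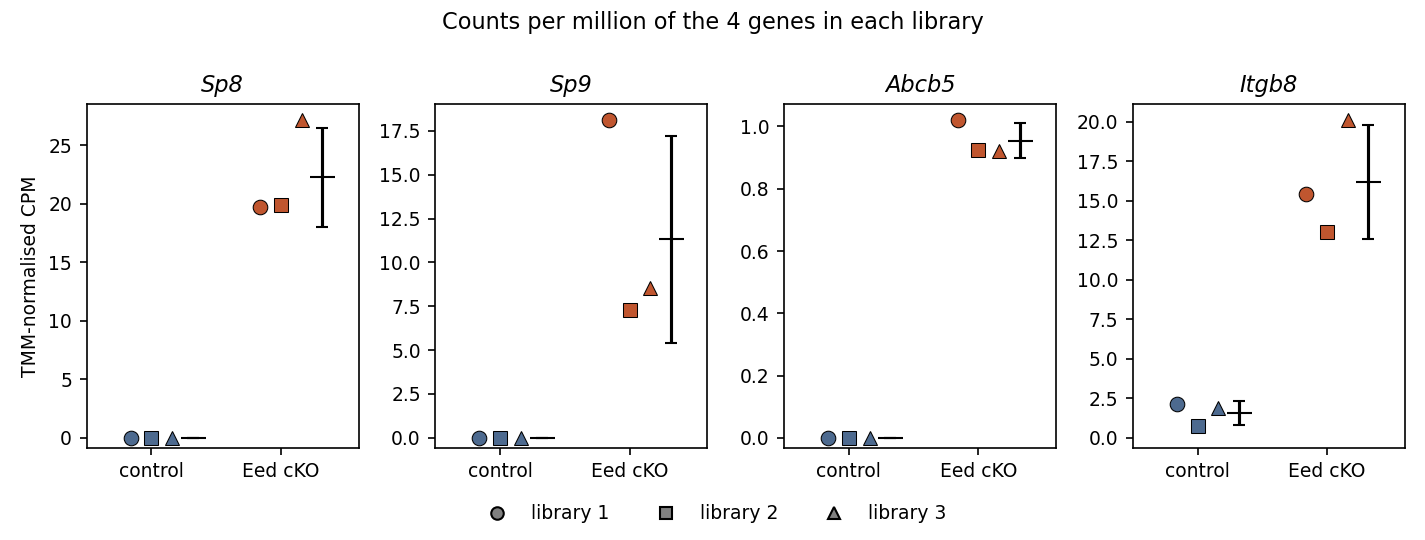
Level of Sp8, Sp9, Abcb5 and Itgb8 in each library in CPM (vertical axis), with 3 control and 3 Eed cKO libraries per gene; points are libraries and bars are means with SD. Control points of Sp8, Sp9 and Abcb5 are at 0, the Eed cKO points of Sp9 spread from 7.30 to 18.1, and the Itgb8 groups do not overlap.

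All 4 genes passed the filter on low counts, and all 4 were among the 499 of 14700 tested genes called higher in Eed cKO (3.39%), or of the 619 called in either direction (4.21%). The Eed cKO libraries all lay above the control libraries for each of the 4, as they did for 1621 of the tested genes (11.0%), while they all lay below for 1355 others (9.22%). Since the genes were chosen on this contrast, nothing is read from those counts. Abcb5 left the count in 5 of the 6 fits that dropped a library, all but the one without Eed cKO 1. It was also removed, and so not tested, by the alternative filter of at least 1 CPM in 3 libraries. Of 6074 genes with no count in any control library, 136 had a count in every Eed cKO library, and 34 passed the filter. Among those 34, Sp8 had the highest mean level in Eed cKO, Sp9 ranked 3 and Abcb5 ranked 28.

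Per kilobase of exon, the scale on which genes can be compared, the levels in Eed cKO were 4.88 ± 0.931 for Sp8, 2.25 ± 1.17 for Sp9, 1.46 ± 0.327 for Itgb8 and 0.218 ± 0.0130 CPM per kb for Abcb5 (SD, n = 3). Sp8 was above the other 3 in every Eed cKO library, and Abcb5 below. Sp9 and Itgb8 were not separated, as Itgb8 was the higher of them in Eed cKO 3 (1.82 against 1.70 CPM per kb) and the lower in Eed cKO 1 (1.39 against 3.59). In control Itgb8 stood at 0.144 ± 0.0685 CPM per kb. Among 14595 tested genes with a length, 50.9% were below Sp8 in Eed cKO, 33.7% below Sp9, 26.3% below Itgb8 and 5.4% below Abcb5. Sp8 transcript therefore stood near the median of 4.68 CPM per kb, and the other 3 genes stood below it. Itgb8 per unit of Sp8 on this scale was steady over Eed cKO 1, 2 and 3, at 0.322, 0.271 and 0.306, while Abcb5 per unit of Sp8 was 0.0538, 0.0484 and 0.0353.

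The 7 other SP genes encode the paralogs of Sp8 and Sp9. Of the 5 tested, none was called by edgeR (0 at an unadjusted p under 0.05, 0 by DESeq2), and their median log2 fold change was -0.10, where that of all tested genes was -0.01. With 4.21% of all tested genes called in either direction, none of 5 is near that share. Sp1, the ubiquitous founding member, was at 451 ± 39.4 CPM in control and 420.0 ± 58.0 CPM in Eed cKO. Sp3 was at 194 ± 8.60 and 169 ± 34.2 CPM, Sp2 at 52.6 ± 7.26 and 45.9 ± 7.10 CPM, and Sp4 at 24.1 ± 2.81 and 26.9 ± 5.08 CPM. Sp5, a Wnt-responsive member, had 11, 3 and 0 counts in control and 34, 10 and 0 in Eed cKO, with a log2 fold change of 1.69 ± 1.41 (SE) and an adjusted p of 0.675. Sp7, the bone regulator also called osterix, had 3 counts in control 1 and none elsewhere. Sp6, which acts in tooth and limb ectoderm, had no count in any library, and 3329 of its 3841 exonic bases overlap those of Gm11532, with no statement of how overlapping reads were counted. The ranges of Sp1, Sp2, Sp3 and Sp4 overlapped between the groups. Per kilobase of exon in Eed cKO, Sp8 at 4.88 CPM per kb stood close to Sp4 at 4.66, and both it and Sp9 at 2.25 stood below Sp2 at 13.4, Sp3 at 34.3 and Sp1 at 50.8 CPM per kb.

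**Figure D3:**
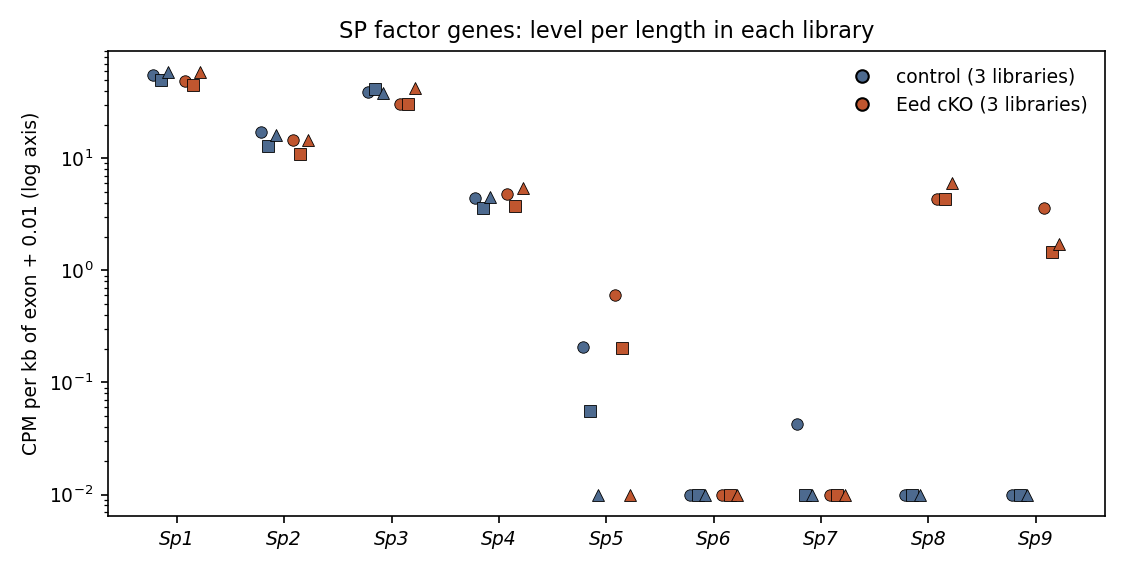
Level of each of the 9 SP genes in every control and Eed cKO library, in CPM per kb of exon on a logarithmic vertical axis. A value of 0.01 is added so that libraries without counts can be drawn. Sp1 to Sp4 overlap between the groups, whereas Sp8 and Sp9 are without counts in control. In every Eed cKO library both are at 1.45 CPM per kb or more.

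In the related KLF branch, which includes the barrier regulator Klf4, 14 of 17 genes were tested and edgeR called none (4 at an unadjusted p under 0.05, 0 by DESeq2). Beside 4.21% of all tested genes called in either direction, none of 14 is near that share. The smallest adjusted p was that of Klf7, 0.151, at a log2 fold change of 0.52. Klf9, Klf13 and Klf12 followed with -0.61, 0.35 and 0.58 (adjusted p = 0.283, 0.295 and 0.327). Klf14, which had too few counts to be tested, was at 3, 7 and 0 counts in control and 10, 77 and 16 in Eed cKO.

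The settings that Sp8 and Sp9 are known from were examined through lists of other genes of limb ectoderm and of forebrain interneurons. Of 23 limb ectoderm genes 15 were tested, and edgeR called 3 higher and 0 lower, beside 3.39% and 0.816% of all tested genes. Of the called genes, En1 and Dlx2 passed the filter on low counts only through Eed cKO, where they were high. The 3 of 15 is therefore not read as an excess over those shares. En1, which marks ventral ectoderm, rose from 0, 0.256 and 0.117 CPM in control 1, 2 and 3 to 6.27, 2.81 and 0.823 CPM in Eed cKO 1, 2 and 3 (log2 fold change 4.65 ± 1.07, adjusted p = 0.0232). Dlx2, a homeobox gene of ridge and forebrain, rose from 6 counts, all in control 2, to 163, 78 and 71 counts (5.83 ± 1.03, adjusted p = 0.00443). Bmp4, a ridge signal, rose from 8.12 to 10.0 CPM in control to 16.2 to 27.0 CPM in Eed cKO (1.30 ± 0.27, adjusted p = 0.0120). Dlx5 did not pass, at a log2 fold change of 2.79 ± 0.76 and an adjusted p of 0.0556. The calls of En1 and Bmp4 depended on which libraries were kept. En1 no longer passed when control 3, Eed cKO 1 or Eed cKO 2 was dropped (adjusted p up to 0.129). Bmp4 no longer passed when control 3 or Eed cKO 3 was dropped (up to 0.0833). Without control 3 only 1 gene of the list was called.

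Fgf8, the ridge signal that Sp8 and Sp9 are known to sustain, had no count in any library, and neither had Msx1 and Rspo2. The other ridge FGFs had too few counts to be tested. Fgf4 had 1 count in each group and Fgf17 had 11 in control and 8 in Eed cKO. Fgf9 was detected mainly in 1 library of each group, with 15 counts (0.479 CPM) in control 2 and 27 counts (1.08 CPM) in Eed cKO 2, none in the other control libraries, and 2 and 0 in Eed cKO 1 and 3. The list's median log2 fold change over the 15 tested genes was 0.20, where that of all tested genes was -0.01. Fgf8 was therefore not detectable beside Sp8 and Sp9 at this depth.

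Of 21 forebrain interneuron genes only 9 had enough counts to be tested, and 4 of these were called higher and 0 lower, beside 3.39% and 0.816% of all tested genes. The called genes were Dlx1, Dlx2, Pax6 and Sall3, all transcription factor genes that the developing nervous system shares with other tissues. Each of them passed the filter on low counts only through Eed cKO, the group where it was high. The 4 of 9 is therefore not read as an excess over those shares. The median log2 fold change over the 9 tested genes was 3.17, and it too covers only genes that passed the filter, some through Eed cKO alone. Pax6 rose from 0.283 ± 0.242 to 8.83 ± 5.28 CPM (SD, n = 3 each), with 3.61, 14.2 and 8.71 CPM in Eed cKO 1, 2 and 3 (log2 fold change 4.93 ± 0.74, adjusted p = 0.00146). Sall3 rose from 1 count in all of control to 41, 94 and 44 counts (adjusted p = 0.00286), a ratio of 205 with a counting interval of 36.3 to 8142. Dlx1 rose from 0.102 ± 0.0799 to 2.12 ± 0.761 CPM (adjusted p = 0.0177), and 335 of its exonic bases are shared with Dlx1as. Dlx1 no longer passed when any of control 1, control 3, Eed cKO 2 or Eed cKO 3 was dropped (adjusted p up to 0.114). Gad1 and Gad2, the enzymes that make the transmitter GABA, had 2 and 0 counts in control and 8 and 9 in Eed cKO, so transcripts that define the interneuron itself were near the floor. Dlx2 was highest in Eed cKO 1, as Sp9 was, at 5.94, 3.13 and 3.44 CPM in Eed cKO 1, 2 and 3, whereas Pax6 was lowest there.

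Among the 9 other ABCB transporters, relatives of Abcb5, 7 were tested and 1 was called higher, where 3.39% of all tested genes were. Abcb1b, which encodes a P-glycoprotein, rose from 15.9, 8.40 and 10.1 CPM in control 1, 2 and 3 to 29.4, 34.0 and 37.0 CPM in Eed cKO 1, 2 and 3. The groups did not overlap, and its log2 fold change was 1.55 ± 0.26 (SE) with an adjusted p of 0.00328, a call kept in all 6 fits that left out a library. Its close paralog Abcb1a had 13, 0 and 35 counts in control and 6, 19 and 0 in Eed cKO, and how reads were divided between these near copies is not stated. Abcb4 and Abcb11 had too few counts to be tested. None of the 4375 distinct 100-base stretches of Abcb5 transcripts occurred in another gene, so its counts are not shared with these relatives.

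Itgav, the αv partner that integrin β8 needs, was present at 125 ± 14.1 CPM in control and 124 ± 11.8 CPM in Eed cKO (log2 fold change -0.02 ± 0.16, adjusted p = 0.981). Of the 8 genes for Itgav and the other β subunits, all tested, edgeR called 1 higher, again beside 3.39% of all tested genes. Itgb6, whose product also activates latent TGF-β with αv, rose from 17.2, 35.6 and 16.3 CPM in control 1, 2 and 3 to 46.8, 58.4 and 51.0 CPM in Eed cKO 1, 2 and 3 (1.18 ± 0.28, adjusted p = 0.0276). Control 2 was the highest control library for Itgb6 and the lowest for Itgb8. Dropping any of control 1, control 3, Eed cKO 2 or Eed cKO 3 ended the call of Itgb6 (adjusted p up to 0.133). Per kilobase of exon, Itgb8 in Eed cKO, at 1.46 CPM per kb, was still below Itgb6 at 7.32, Itgb5 at 18.3 and Itgb1 at 95.7 CPM per kb.

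Of 15 genes of latent TGF-β and its activation, Itgb6 included, all were tested and edgeR called 3 higher and 0 lower, where 3.39% and 0.816% of all tested genes were called. Tgfb2, a ligand whose latent form lacks the motif that αv integrins bind, rose from 8.19, 4.54 and 6.99 CPM in control to 34.7, 27.3 and 34.7 CPM in Eed cKO, with the groups apart (2.30 ± 0.27, adjusted p = 0.000176). Tgfbr2, a receptor, rose from 188 ± 6.02 to 289 ± 31.7 CPM (0.62 ± 0.15, adjusted p = 0.0364), and dropping any library other than Eed cKO 1 ended that call (adjusted p up to 0.169). Among the rest, Ltbp1 and Ltbp4, which tether latent TGF-β to the matrix, had log2 fold changes of 0.99 and -0.54 (adjusted p = 0.0830 and 0.0660). Over these 15 genes the median log2 fold change came to 0.01. The count is unsteady, with 5 called by DESeq2 (4 higher, 1 lower) and 1 when control 3, Eed cKO 2 or Eed cKO 3 was dropped.

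Markers of other cell types moved with genotype in part, where 3.39% of all tested genes were called higher and 0.816% lower. Summed fibroblast markers were at 497 to 684 CPM in control and 774 to 840 CPM in Eed cKO, with none of the 10 at 0 in all libraries and 1 of 9 tested (Fbn1) called higher. Of those 9, 5 had a positive log2 fold change, with a median of 0.26. Summed Merkel cell markers were at 16.3 to 32.4 CPM in control and 58.4 to 86.7 CPM in Eed cKO, with 3 of 6 tested (Isl1, Ncam1 and Sox2) called higher. Neural and Schwann markers (15.3 to 18.7 against 14.9 to 29.7 CPM, with Nefl at 0) and endothelial markers (6.84 to 37.8 against 7.30 to 36.7 CPM) overlapped between the groups. None of either list was called by edgeR. Log2 fold changes were positive in 6 of 8 tested neural and Schwann markers (median 1.02) and in 3 of 7 endothelial ones (median -0.605). Leukocyte markers, at 133 to 534 CPM in control and 76.4 to 398 CPM in Eed cKO with none at 0 in all libraries, overlapped in sum. Their log2 fold changes were negative in all 8 tested of 10, with a median of -0.95, and 1 (Cx3cr1) was called lower by edgeR and 2 of the list were called by DESeq2. The part of any of these cell types in the levels of Sp8, Sp9, Abcb5 and Itgb8 was not tested.

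On chromosome 12 the 3 neighbours lie in the order Sp8, Abcb5, Itgb8, with no other gene of the count files between them. Sp8 and Abcb5 point toward each other, their ends 15.2 kb apart, and Itgb8 begins its span 305.4 kb beyond Sp8. The next gene to the right, Macc1, a regulator known from colon cancer, is 461.7 kb from Sp8. Macc1 had 49.6 ± 14.2 CPM in control and 75.5 ± 10.7 CPM in Eed cKO (log2 fold change 0.61 ± 0.22, adjusted p = 0.168). Its groups did not overlap, as the lowest Eed cKO library, at 67.1 CPM, was just above the highest control library, at 65.8 CPM. To the left, D230030E09Rik had no count, and Sp4, 544.9 kb away, had a log2 fold change of 0.16 (adjusted p = 0.836). Dnah11, an axonemal dynein gene 647.3 kb away, had 5.65, 4.79 and 3.05 CPM in control 1, 2 and 3 and 14.6, 10.5 and 7.55 CPM in Eed cKO 1, 2 and 3. Its groups did not overlap, but it did not pass (1.28 ± 0.38, adjusted p = 0.0812), and it did by DESeq2 (adjusted p = 0.0166). Cdca7l, which overlaps Dnah11, had a log2 fold change of 0.15.

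Apart from Abcb5 and Itgb8, edgeR called 0 of the 4 tested genes within 1 Mb of Sp8 (2 at an unadjusted p under 0.05, 1 by DESeq2). Of all tested genes 4.21% were called in either direction, so 0 of 4 is near that share. All 4 had a positive log2 fold change, with a median of 0.38, where 48.7% of all tested genes were positive. Macc1 was called in the fit without control 2 (adjusted p = 0.0434). A further 12 gene models of that stretch were not analysed here. Abcb5 and Itgb8 were singled out for their difference, so their standing above these neighbours in fold restates that choice.

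**Figure D4:**
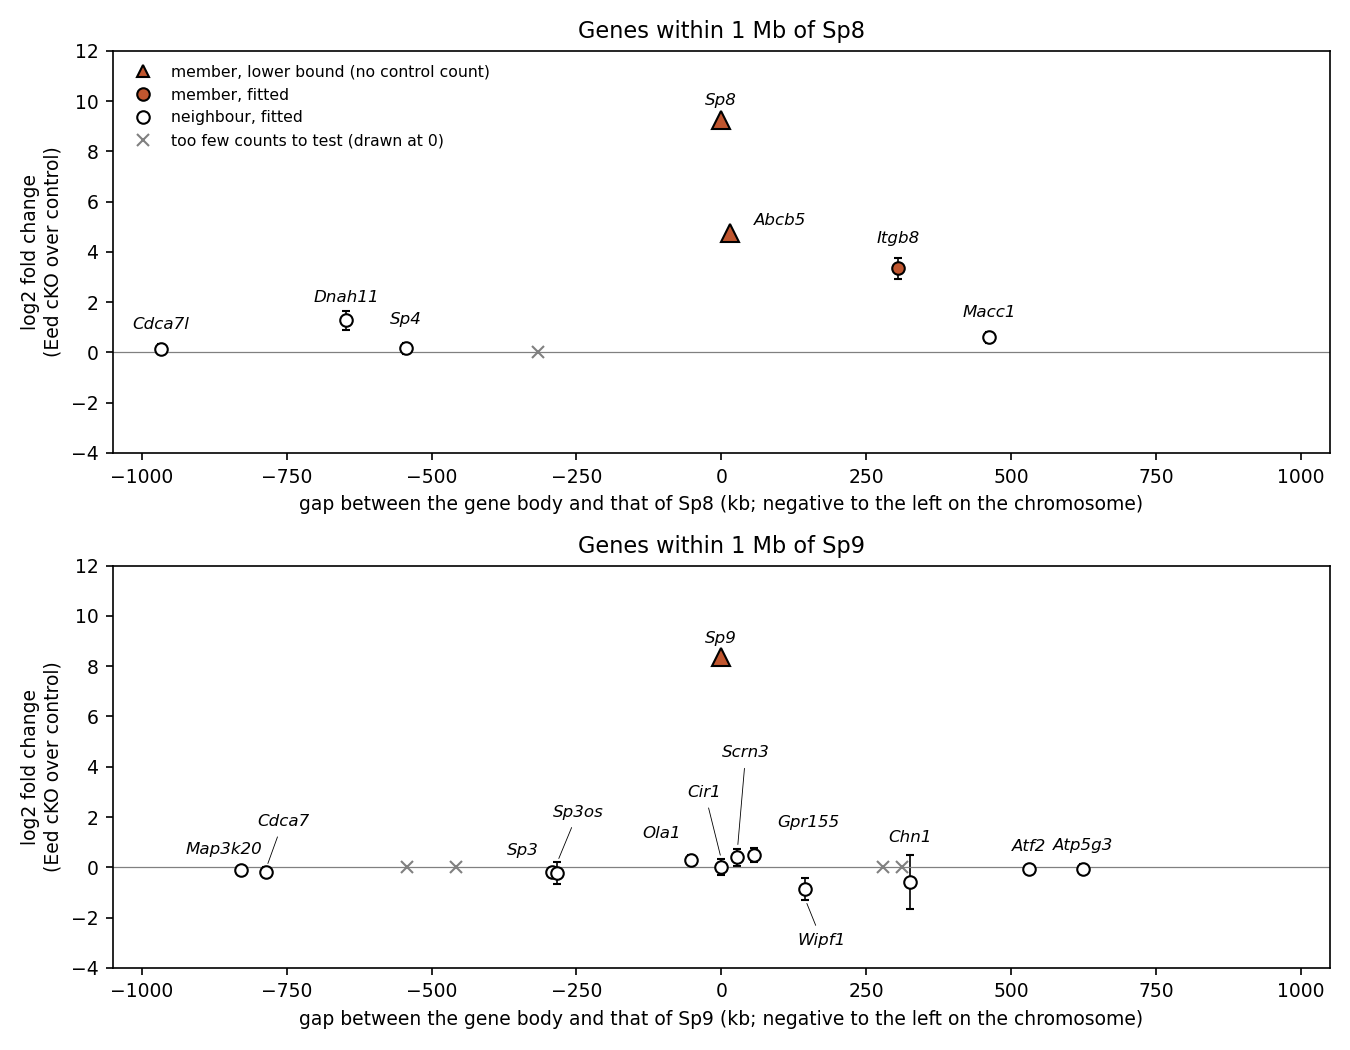
Log2 fold change of Eed cKO over control (vertical axis) against distance from Sp8 or Sp9 in kb (horizontal axis), for the genes within 1 Mb. Sp8, Sp9 and Abcb5 are drawn at their lower bounds and Itgb8 at its fitted value, other tested genes as open circles with SE, and crosses at 0 are genes with too few counts to test. The neighbours other than Abcb5 and Itgb8 lie between -0.85 and 1.28.

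Around Sp9 on chromosome 2 no neighbour was called. Of 16 genes within 1 Mb, 12 were tested, and 4.21% of all tested genes were called in either direction, so none of 12 is near that share. None of the 12 was called by edgeR (0 at an unadjusted p under 0.05, 0 by DESeq2). Of these, 4 had a positive log2 fold change, and the median was -0.10. Cir1, a splicing and Notch co-repressor gene that overlaps the end of Sp9, had 220, 393 and 202 counts in control and 247, 213 and 234 in Eed cKO (log2 fold change 0.01 ± 0.31, adjusted p = 0.995). Sp9 had no count in the control libraries in which Cir1 had over 200, so reads of Cir1 were not assigned to Sp9 there. Ola1, 53.0 kb to the left, and Scrn3 and Gpr155, 27.9 and 56.8 kb to the right, had log2 fold changes of 0.30, 0.40 and 0.50. The lowest was that of Wipf1, -0.85 (adjusted p = 0.397), and Sp3, 291.5 kb to the left, had -0.20. The farther genes Sp3os, Chn1, Atf2, Atp5g3, Map3k20 and Cdca7 had log2 fold changes of -0.23, -0.59, -0.08, -0.07, -0.11 and -0.20, of which those of Sp3os, Chn1 and Atp5g3 changed sign when 1 control library was left out.

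Profiles over the 6 libraries were compared by the root-mean-square difference of log2 CPM, each gene centred on its own mean, among 13666 tested genes with an established symbol. This measure uses the contrast that chose the 4 genes, so it only describes. The genes nearest to Sp8 were Gata4 (0.44), Sim2 (0.52), Zic1 (0.52), Hoxa10 (0.53) and Hoxd13 (0.61), all developmental transcription factors, and Sp9 ranked 9 (0.72). Nearest to Sp9 were Hoxa10 (0.24), Tbx5 (0.28), Six2 (0.40), Hoxd13 (0.46) and Hoxc10 (0.46), and Sp8 ranked 15. Hoxa10 also had no control count and was highest in Eed cKO 1, at 21.6, 8.79 and 13.5 CPM in Eed cKO 1, 2 and 3. Nearest to Abcb5 were Nkx6-1 (0.12), Slc6a11 (0.14), Tram1l1 (0.17), Zdbf2 (0.20) and Sowahb (0.21). Nearest to Itgb8 were Cecr6 (0.19), Ache (0.24), Krt12 (0.31), Tnik (0.35) and Hoxc13 (0.38). From Sp8, Abcb5 ranked 86 (2.22) and Itgb8 ranked 121 (2.43). Taken from the other side, Sp8 ranked 12342 from Abcb5 and 13265 from Itgb8, so most genes were nearer to those 2 than Sp8 was. Abcb5 and Itgb8 differed less from each other (0.53), with Itgb8 at rank 37 from Abcb5 and Abcb5 at rank 29 from Itgb8. The added prior count compresses the profile of a gene with few counts, such as Abcb5, and Itgb8 had counts in control where Sp8 had none.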

How the data were processed

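RNA-seq of 3 control and 3 Eed cKO libraries was used. Each deposited file lists raw counts by gene symbol, which the authors had not normalized. Per the submitters' processing notes, mm10, HTSeq 0.6.1, TopHat2 2.0.13, DESeq2 1.6.3 and Cufflinks 2.2.1 were used, in roles that are not stated. The annotation, strand setting and filters are not given in the sources, and counts of overlapping genes are therefore uncertain. Reads were single and 100 bases long, per the labels' protocols.

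The analysis used edgeR 4.0.16 under R 4.3.3. The filterByExpr function kept 14700 of 24453 genes. After TMM scaling, each gene had a quasi-likelihood F-test of genotype, and p-values were adjusted by Benjamini-Hochberg over all tested genes, with a threshold of 0.05. A positive log2 fold change means a higher level in Eed cKO. For genes without a control count, 3 counts over all of control set the lower bound of the fold. Floors and 95% intervals cover counting error only, as reads of amplified RNA share molecules. An exact permutation test of 3 against 3 libraries cannot give a two-sided p under 0.1. The steps were tested on simulated data.

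The members and gene lists were chosen with earlier results of these data known. Genes named were the 4 members, all SP genes, the neighbours within 1 Mb, in each list those called or, where fewer than 4, those with the smallest p, and for each member the 5 nearest profiles (log2 CPM, prior count 2). Others are named for their known role, after their values were seen. The results were recomputed with RLE or upper-quartile scaling, without a filter, with at least 1 CPM in 3 libraries, by DESeq2 1.42.0, with a replicate block, with prior count 2, with windows of 0.5 and 2 Mb, and with each library left out. Positions and lengths are from GENCODE M21 on GRCm38, matched by current symbol for 23797 genes and by an older one for 278, with 378 unmatched. Promoter windows are RefSeq's on GRCm38.p6. Protein sequences were not analysed here. Figures used Python 3.11.15 and matplotlib 3.10.9.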

Additional observations from a re-analysis of the deposited data

How the results depend on the processing

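The levels of Sp8, Sp9, Abcb5 and Itgb8 in Eed cKO moved by less than their SD between libraries under every scaling, filter, tool and left-out library listed above. The lower bound of Sp8 on the log2 scale ran from 8.59 to 9.33 over the fits that left out a library, and that of Abcb5 from 4.08 to 4.78. The low ends came from fits without a control library, because fewer control reads raise the floor. The high ends came without Eed cKO 1 for Sp8 and without Eed cKO 2 for Abcb5. Without 1 control library the bounds were 386-fold to 422-fold for Sp8, 207-fold to 226-fold for Sp9 and 16.9-fold to 18.5-fold for Abcb5. The Sp9 level ran from 7.93 to 13.4 CPM over the same fits. The log2 fold change of Itgb8 ran from 3.01 to 3.64, and was 3.29 with prior count 2, a choice that does not enter the bounds. Genes called higher numbered 499, 764 by DESeq2 and 302 to 456 without a library (302 without Eed cKO 3, 323 without control 3). Genes called lower numbered 120, 257 without a filter, 270 by DESeq2, 269 with the replicate block and 35 to 118 without a library. Called limb ectoderm genes ranged over 1 to 4, interneuron genes over 3 to 5, integrin genes over 0 to 1 and TGF-β genes over 1 to 3 without a library, and TGF-β genes were 5 by DESeq2 and 5 with the replicate block (4 higher, 1 lower each). Of the neighbours of Sp8, 1 was called without a filter (Dnah11, adjusted p = 0.0386), 1 by DESeq2, 1 with the replicate block (Dnah11, 0.0289) and 0 to 1 without a library. Of those of Sp9, 8 were called in the 2 Mb window, which reaches further genes. Small log2 fold changes that reversed over the fits without a library were those of Sp3os (-0.45 to 0.031, positive without control 2), Cir1 (-0.13 to 0.27, with -0.09 without control 1 and -0.12 without control 3), Chn1 (-1.15 to 0.64, positive without control 1) and Atp5g3 (-0.24 to 0.086, positive without control 2). The cause was not tested beyond the fewer samples or genes of each fit. Replicate numbers were not taken to pair the libraries, since same-numbered deviations correlated at 0.23, 0.108 and -0.00138, and not every library correlated best with its own number. Depth limits what 0 counts can show for Sp8, Sp9, Abcb5 and Fgf8, and 70 counts in all limit Abcb5.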

Other observations

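Beyond the 1 Mb used above, the 2 Mb on either side of Sp9 held 30 tested genes. Of these, 8 were called higher in Eed cKO and 0 lower by edgeR (3.39% and 0.816% of all tested genes). Among those called, Dlx1, Dlx2, Hoxd13, Hoxd11, Hoxd10 and Hoxd3os1 passed the filter on low counts only through Eed cKO, where they were high. The 8 of 30 is therefore not read as an excess over those shares. The 8 called genes lie in 2 groups on opposite sides. Dlx2 and Dlx1 begin 1725 and 1738 kb to the left. Hoxd13, Hoxd11, Hoxd10, Hoxd9, Hoxd3os1 and Hoxd8 lie 1384 to 1420 kb to the right. Hoxd13, the most posterior HoxD gene, was at 0.0237 CPM in control and 13.2 CPM in Eed cKO, and Hoxd8 at 4.54 and 33.4 CPM. No tested gene of the 1 Mb around Sp9 was called between these groups.

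Chrna1, the muscle acetylcholine receptor gene 278.5 kb from Sp9, had 71 counts in Eed cKO 1, where Sp9 was highest, 0 in Eed cKO 2 and 3, and 4 in control, all in control 2. It had too few libraries with counts to be tested. Tmem196, 1093 kb to the right of Sp8, had 0 counts in control and 4, 2 and 1 in Eed cKO 1, 2 and 3.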
